A study of Mus musculus with 12 samples.

Results

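Penk, Pdyn and Tac1 encode the precursors of the main neuropeptides of striatal projection neurons. The 3 genes were taken by symbol from a table of 15397 genes, and all 3 were present with reads in every library. The striatum was dissected from 12 C57BL/6 mice in 4 groups of n = 3 mice, which were wild type on vehicle, wild type on PLX3397, R6/2 on vehicle and R6/2 on PLX3397. R6/2 mice carry a fragment of mutant human huntingtin as a transgene under a huntingtin promoter, so the fragment is not limited to 1 cell type, and they model Huntington's disease. PLX3397 blocks Csf1r, the receptor that microglia need to survive. It was given in the food at 275 ppm while the mice were 7 to 11 weeks old, with vehicle over the same weeks in the controls. Values are log2 CPM (log2 of reads as counts per 1000000, after library scaling and with a small prior count), and the libraries held 18902120 to 24293208 reads assigned to genes.

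Striatal projection neurons form a pair of output routes. Neurons of the indirect pathway carry the dopamine receptor Drd2 and the adenosine receptor Adora2a and make enkephalin from Penk. Neurons of the direct pathway carry the dopamine receptor Drd1 and make dynorphin from Pdyn and substance P from Tac1. Each precursor protein is cut at pairs of basic residues into short peptides, which are released and act on receptors that signal through G proteins. In Huntington's disease, loss of enkephalin from the striatum is known as an early sign, and dynorphin and substance P are known to decline too.

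The coding sequences show what each transcript supplies, and 1 unit of each kind of peptide is printed to let the cores be compared. The units were found by translating the longest protein-coding transcript of each gene in GENCODE M21 on GRCm38. Penk (NCBI gene 18619, chr4:4133536-4138815) encodes 268 residues with 7 enkephalin cores, 6 of Met-enkephalin and 1 of Leu-enkephalin, all in exon 2. Pdyn (gene 18610, chr2:129686549-129699938) encodes 248 residues with 3 cores of the Leu-enkephalin kind, all in exon 4. Tac1 (gene 21333, chr6:7555061-7562978) encodes 130 residues with 2 tachykinin cores, in exons 3 and 6. Below, the 15 bases of the core are in capitals, with 6 bases before and 9 after them, read 5′ to 3′ on the coding strand.
Met-enkephalin unit (Penk, chr4:4134325-4134354, - strand): aagaagTACGGAGGCTTCATGaaacggtac
Leu-enkephalin unit (Penk, chr4:4133932-4133961, - strand): aagaggTATGGGGGCTTCCTGaagcgcttt
alpha-neoendorphin unit (Pdyn, chr2:129688229-129688258, - strand): aaacgcTATGGCGGCTTTTTGcgcaaatac
dynorphin A unit (Pdyn, chr2:129688121-129688150, - strand): aaacgcTATGGGGGCTTCCTGcggcgcatt
dynorphin B unit (Pdyn, chr2:129688064-129688093, - strand): aagcgcTATGGTGGTTTCCTGcggcgtcag
substance P unit (Tac1, chr6:7556744-7556773, + strand): cagcagTTCTTTGGATTAATGggcaagcgg
neurokinin A unit (Tac1, chr6:7559110-7559139, + strand): gattccTTTGTTGGACTAATGggcaaaaga
The enkephalin and dynorphin units all had codons for a pair of basic residues before the core, and the tachykinin units had a glycine codon and then such a pair after it. One Penk molecule of RNA thus encodes more opioid cores than 1 molecule of Pdyn RNA, which the RNA levels below do not take into account. Penk exons overlap A830012C17Rik on the opposite strand. Whether the counting used strand is not given in the sources used here, so reads from the pair cannot be told apart, and no such overlap was found for Pdyn or Tac1.

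The start regions of Tac1 and Pdyn are shown, and the promoter set used held no entry for Penk. They were looked at because the 3 genes moved together, and the cAMP response element is a known control site of neuropeptide genes. RefSeq promoter windows on GRCm38.p6 were used for Tac1 and for the first of the Pdyn entries. The 250 bases before the start site are printed, with matches in capitals to TGACGTCA (the full cAMP response element), TGCGTCA (the form known from the enkephalin enhancer), TGACTCA (the AP-1 site), CACGTG (an E-box) and CCAAT, each searched on both strands.
Tac1 upstream window (chr6:7554811-7555060, + strand): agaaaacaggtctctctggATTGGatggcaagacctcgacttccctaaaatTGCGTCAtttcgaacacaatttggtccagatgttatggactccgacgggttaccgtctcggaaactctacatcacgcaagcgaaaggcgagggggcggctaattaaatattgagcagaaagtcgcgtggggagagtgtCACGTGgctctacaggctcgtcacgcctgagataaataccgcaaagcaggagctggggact
Pdyn upstream window (chr2:129699939-129700188, - strand): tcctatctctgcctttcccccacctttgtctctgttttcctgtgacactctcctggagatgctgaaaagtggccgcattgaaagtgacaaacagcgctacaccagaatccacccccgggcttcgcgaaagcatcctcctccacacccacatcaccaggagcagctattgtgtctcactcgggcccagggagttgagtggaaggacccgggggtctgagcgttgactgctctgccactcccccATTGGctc
The Tac1 window held TGCGTCA, which 1.75% of 32851 promoter windows hold, CACGTG, which 6.02% hold, and CCAAT, which 33.8% hold. The Pdyn window held CCAAT alone among these motifs, as did the other Pdyn window, which is not printed. TGACGTCA is in 1.55% of the windows and TGACTCA in 4.46%, and neither was in the windows printed. A match is a description of the letters and not a site shown to be used.

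The libraries were checked against their labels before the groups were compared. Csf1r had 1777 to 2844 reads in the 6 vehicle libraries and 8 to 70 in the 6 PLX3397 libraries, and all 8 microglial genes of a list fell with the drug in both genotypes. Marker genes of projection neurons (12 genes) summed to 4563 to 19041 CPM in wild type and to 1303 to 3888 CPM in R6/2. Some libraries stood apart. Cortical marker genes (9 of 9 measured) summed to 88.9 and 68.7 CPM in R6/2 PLX3397 libraries 1 and 2 and to 90.1 CPM in wild-type PLX3397 library 1, against 265 to 1463 CPM in the others. Choroid plexus genes (6 of 8 in the table) summed to 4543 CPM in R6/2 vehicle library 1 and to 1041 CPM in wild-type PLX3397 library 1, against 44.9 to 118 CPM in the others. Results are therefore also given without R6/2 PLX3397 libraries 1 and 2, or without R6/2 vehicle library 1 and wild-type PLX3397 library 1, where this ends a call or moves a value by over 1.5 times. Leaving libraries out also changes how many of all genes are called, and those totals are given in the closing section. The part of other tissue in these results was not tested. Levels also followed transcript GC content in some libraries: the rank correlation of a gene's deviation with its GC content was -0.38, -0.36 and 0.036 in wild-type vehicle libraries and 0.31, -0.0060 and -0.0013 in R6/2 vehicle libraries. It was 0.25 to 0.45 in wild type on PLX3397 and -0.53 to -0.20 in R6/2 on PLX3397.

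Penk had the highest level of the 3 precursors in every library, in log2 CPM and also per base of transcript. Its level was 10.07, 10.15 and 9.29 log2 CPM in wild-type vehicle libraries 1 to 3, where it ranked between 67 and 141 among all genes. It was 6.66, 6.10 and 7.48 log2 CPM in R6/2 vehicle libraries, at ranks 1113 to 3705. In wild type on PLX3397 it was 11.03, 10.53 and 10.99 log2 CPM, and in R6/2 on PLX3397 it was 6.90, 8.12 and 7.44 log2 CPM. Every R6/2 library lay below every wild-type library, on vehicle and on the drug. Among all genes, 17.1% on vehicle and 24.2% on PLX3397 were lower in R6/2 without overlap.

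Pdyn had the lowest level of the 3, on both scales. It was at 5.42, 5.15 and 5.05 log2 CPM in wild-type vehicle libraries, which came from 772 to 788 reads, and at 2.75, 2.29 and 3.54 log2 CPM in R6/2 vehicle libraries, from 95 to 224 reads. On PLX3397 it was at 5.91, 5.08 and 5.71 log2 CPM in wild type and at 3.85, 4.75 and 3.16 log2 CPM in R6/2. The highest R6/2 value, in PLX3397 library 2, was below the lowest wild-type value, so the genotypes did not overlap. Within a treatment, this was so for 17.1% of all genes on vehicle and 24.2% on PLX3397.

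Tac1 lay between them and was the only one of the 3 whose genotypes overlapped across treatments. It was at 7.67, 7.52 and 6.58 log2 CPM in wild-type vehicle libraries and at 5.79, 5.65 and 6.48 log2 CPM in R6/2 vehicle libraries. On PLX3397 it was at 8.16, 7.85 and 8.10 log2 CPM in wild type and at 5.62, 7.22 and 6.14 log2 CPM in R6/2. Within each treatment every R6/2 library was below every wild-type library, as for 17.1% of all genes on vehicle and 24.2% on PLX3397. R6/2 PLX3397 library 2, however, was above wild-type vehicle library 3.

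**Figure D1:**
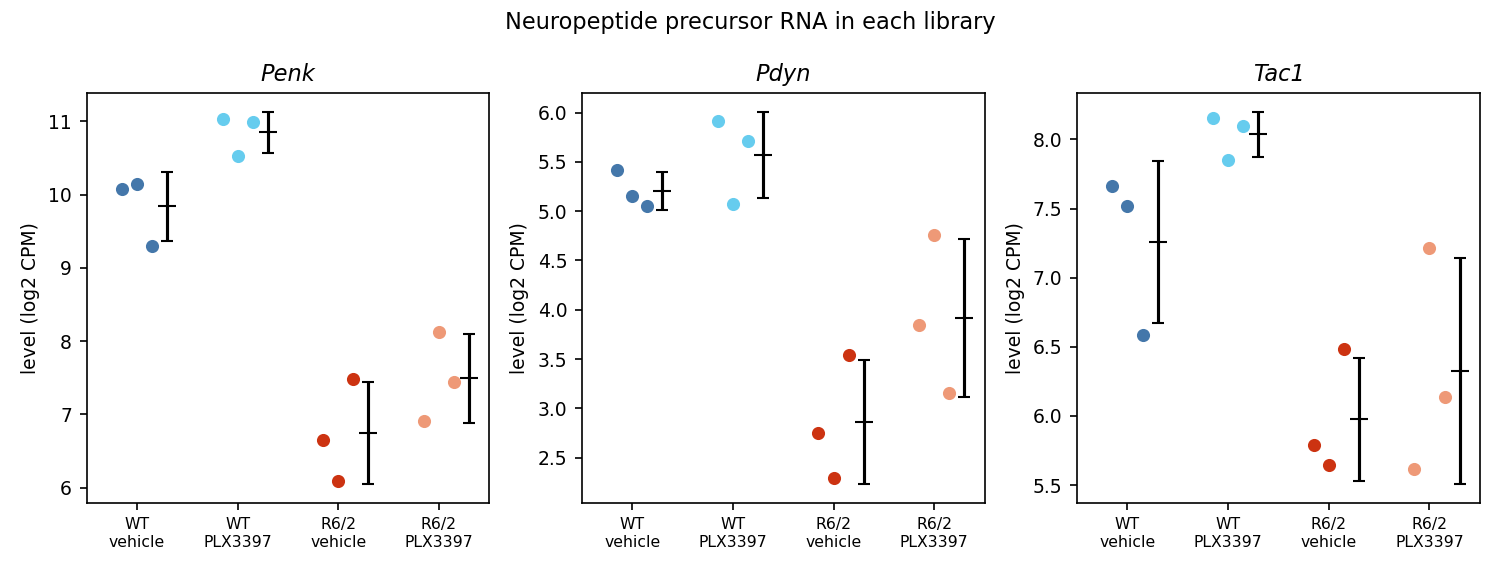
Level of Penk, Pdyn and Tac1 (vertical axes, log2 CPM) in each of 12 libraries, in 4 groups of n = 3 mice; points are libraries in replicate order, and the black bar is the mean ± SD. R6/2 libraries lie below wild-type libraries of the same treatment in all 3 panels, with 1 R6/2 PLX3397 library of Tac1 inside the wild-type vehicle range.

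Per base of transcript, the order of the genes was the same. With transcript lengths of 1449 bases for Penk, 2386 for Pdyn and 1230 for Tac1, the mean level in wild type on vehicle was 9.30 ± 0.47 log2 RPKM (CPM per 1000 bases of transcript; SD, n = 3) for Penk, 6.96 ± 0.59 for Tac1 and 3.95 ± 0.19 for Pdyn. In R6/2 on vehicle the same levels were 6.21 ± 0.70 log2 RPKM for Penk, 5.68 ± 0.45 for Tac1 and 1.61 ± 0.63 for Pdyn. The gap between Penk and Tac1 was thus much narrower in R6/2.

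On vehicle, R6/2 striatum had less Penk and less Pdyn RNA than wild type. Penk was 8.54-fold lower (log2 change -3.09 ± 0.38 SE, limma with Benjamini-Hochberg adjustment over all genes, adjusted p = 0.0161), and stood at rank 4 of all genes by p. Pdyn was 5.08-fold lower (-2.34 ± 0.40, adjusted p = 0.0283). Tac1 did not pass the test: its mean was 2.43-fold lower (-1.28 ± 0.39, adjusted p = 0.103, 95% interval -2.15 to -0.41), though its 3 R6/2 values did not overlap the wild-type ones. Across all genes 1.49% were called lower, against 2 of these 3. Lower values without overlap were found on vehicle for 17.1% of all genes, so the separation of Tac1 is common in the table. In bulk tissue, fewer cells of a type and less RNA per cell cannot be told apart. Markers of other cells and regions also moved with genotype on vehicle. All 7 astrocyte genes were below 0 (2 called, median -0.69, summed level 2604 to 3719 CPM in R6/2 against 4505 to 5677 CPM in wild type), and all 7 oligodendrocyte genes were below 0 (0 called, median -0.50, 5813 to 8921 against 7630 to 14273 CPM). Genes of thalamus and septum (8 measured) had a median of -1.15 (1 called), and summed to 66.6 to 162 CPM in R6/2 and 151 to 401 CPM in wild type. Cortical genes went the other way, with 0 of 9 below 0, 0 called and a median of 1.21. They summed to 602 to 1463 CPM in R6/2 on vehicle and to 265 to 655 CPM in wild type on vehicle. The part of these cells and regions in the result was not tested. Without the pair of libraries high in choroid plexus genes, the Penk change was -3.05 (adjusted p = 0.0364) and the Pdyn change was -2.29 and not called (adjusted p = 0.0612). Both calls also depended on single libraries: leaving out library 1 or 2 of wild type on vehicle, or library 2 of R6/2 on vehicle, ended the Penk call, and any of these or library 1 of R6/2 on vehicle ended that of Pdyn (changes of -3.46 to -2.77 and -2.68 to -2.06 over all libraries left out in turn).

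On PLX3397 all 3 precursors were lower in R6/2 than in wild type. Penk was 10.2-fold lower (-3.36 ± 0.38, adjusted p = 4.50e-04), Pdyn 3.13-fold lower (-1.65 ± 0.40, adjusted p = 0.0111) and Tac1 3.28-fold lower (-1.71 ± 0.39, adjusted p = 0.00834). Across all genes 17.9% were called lower in this comparison, so a call here sets a gene less apart than a call on vehicle. Without R6/2 PLX3397 libraries 1 and 2, which leaves 1 treated R6/2 library assumed to vary like the other groups, the Tac1 change was -1.90 and not called (adjusted p = 0.0586), and the Pdyn change was -2.41 rather than -1.65 (adjusted p = 0.0436).

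Averaged over the treatments, the genotype change was -3.23 ± 0.27 for Penk (9.35-fold, adjusted p = 1.01e-04), -2.00 ± 0.29 for Pdyn (3.99-fold, adjusted p = 0.00131) and -1.50 ± 0.28 for Tac1 (2.82-fold, adjusted p = 0.00452). All 3 were called, and 11.9% of all genes were called lower. These 3 calls held in all 23 alternative settings run, with adjusted p of 8.72e-05 to 0.0179 over the 3 genes.

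None of the 3 precursors passed the test for PLX3397. In wild type their mean changes were 1.01 ± 0.38 for Penk (2.01-fold, adjusted p = 0.0931), 0.36 ± 0.40 for Pdyn (adjusted p = 0.558) and 0.78 ± 0.39 for Tac1 (adjusted p = 0.186), by limma. At an unadjusted p under 0.05 the count was 1 of 3, which was Penk, beside 5246 of 15397 over all genes. Limma-voom on recovered reads called none of the 3. The 3 treated values lay above all vehicle values for Penk and for Tac1, and overlapped for Pdyn. Of the 12 marker genes of projection neurons, 0 were below 0 with the drug in wild type (0 called, median 0.56). A rise of the mean was thus not particular to the precursors. In the whole table, 5.93% of genes were called higher with the drug in wild type, and 18.8% were higher without overlap.

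In R6/2 the drug's mean changes were 0.75 ± 0.38 for Penk (adjusted p = 0.428), 1.06 ± 0.40 for Pdyn (2.08-fold, adjusted p = 0.322) and 0.35 ± 0.39 for Tac1 (adjusted p = 0.701), with intervals of -0.10 to 1.59, 0.17 to 1.94 and -0.52 to 1.22. The treated and untreated values overlapped for all 3 genes, and 0.0585% of all genes were called higher. Of the 12 marker genes of projection neurons, 0 were below 0 here too (0 called, median 0.24). Limma called 0 of 3 and limma-voom 0 of 3, against 1 of 3 at an unadjusted p under 0.05, which was Pdyn. Over all genes that count was 2023 of 15397. The Pdyn difference fell on R6/2 PLX3397 libraries 1 and 2, those low in cortical genes: without them it was 0.29 rather than 1.06. The Tac1 change was -0.10 rather than 0.35 without library 2 alone. Averaged over the genotypes, the drug's changes were 0.88 ± 0.27 for Penk, 0.71 ± 0.29 for Pdyn and 0.57 ± 0.28 for Tac1, none called (adjusted p = 0.328, 0.558 and 0.626), with 0.00649% of all genes called higher. There 2 of 3 had an unadjusted p under 0.05, beside 1278 of 15397 over all genes.

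A test of whether the genotypes responded differently took the change with PLX3397 in R6/2 and subtracted that in wild type. The result was -0.26 ± 0.54 for Penk, 0.70 ± 0.57 for Pdyn and -0.43 ± 0.56 for Tac1. Leaving out R6/2 PLX3397 libraries 1 and 2 turned the Pdyn value to -0.066, and the Penk value was 0.22 with the relation to GC content and length removed, so neither direction is settled. None was called (adjusted p = 0.750, 0.400 and 0.599), and 17.0% of all genes were called in either direction. None had an unadjusted p under 0.05, beside 5561 of 15397 over all genes. The 95% intervals ran from -1.46 to 0.93, from -0.56 to 1.95 and from -1.66 to 0.79, so differences of over 1.5-fold between the genotypes' responses are inside all 3.

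Treated R6/2 mice were also set against wild-type mice on vehicle, to ask how far the drug left the precursors from untreated normal tissue. Penk was still 5.09-fold lower (-2.35 ± 0.38, adjusted p = 0.00612). Pdyn (-1.29 ± 0.40, adjusted p = 0.0961) and Tac1 (-0.93 ± 0.39, adjusted p = 0.209) did not pass the test, against 3.63% of all genes called lower. Both means were below wild type, and the intervals (-2.18 to -0.40 and -1.80 to -0.07) do not reach 0. Without R6/2 PLX3397 libraries 1 and 2 the Penk change was -2.40 and not called (adjusted p = 0.0912) and the Pdyn change was -2.05 rather than -1.29, also not called (adjusted p = 0.118). Without library 2 alone Pdyn was called (-1.70, adjusted p = 0.0416).

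**Figure D2:**
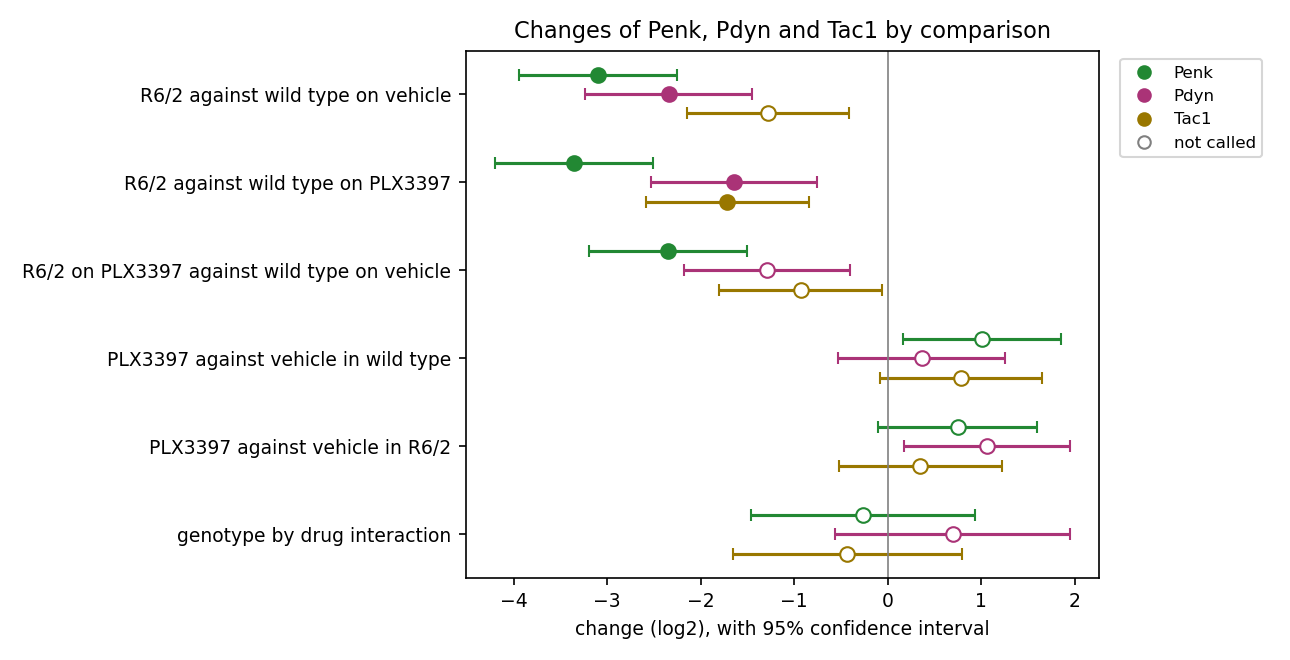
Change in log2 CPM (horizontal axis) of Penk, Pdyn and Tac1 in 6 comparisons, with 95% confidence intervals from limma; filled points passed an adjusted p of 0.05 and open points did not. Filled points are found only where R6/2 is set against wild type, and the intervals of the interaction all span 0.

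Set in order, Penk was highest in wild type on PLX3397, then in wild type on vehicle, R6/2 on PLX3397 and R6/2 on vehicle, and Pdyn and Tac1 had the same order of means. For Penk, the step between wild-type vehicle and treated R6/2 passed the test, and the other neighbouring steps did not. For Pdyn and Tac1 no step between neighbours in this order passed the test.

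The precursors of the indirect and direct pathways did not decline equally. In each library the ratio of reads of one precursor to another does not depend on the library's depth, and differences in the log2 ratio were tested with a two-sided exact permutation test within the treatment or genotype (400 arrangements, smallest p = 0.005), adjusted over 6 tests. Penk reads were 5.30, 6.21 and 6.54 times Tac1 reads in wild-type vehicle libraries and 7.31, 6.38 and 7.41 times in wild type on PLX3397. In R6/2 the multiples were 1.82, 1.37 and 2.00 on vehicle and 2.45, 1.87 and 2.48 on PLX3397. All 6 R6/2 ratios thus lay far below all 6 wild-type ratios. The genotype difference was -1.73 on the log2 scale, or 3.31-fold (exact permutation p = 0.005, the smallest this design gives, adjusted p = 0.015).

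Penk also fell more than Pdyn, the direct-pathway opioid precursor. Penk reads were 19.0 to 32.0 times Pdyn reads in wild-type vehicle libraries and 34.7 to 43.9 times in wild type on PLX3397, against 14.2 to 15.4 times in R6/2 on vehicle and 8.37 to 19.7 times in R6/2 on PLX3397. The difference was -1.23, or 2.35-fold (exact permutation p = 0.005, adjusted p = 0.015). Here the groups overlapped by 1 library across treatments, as R6/2 PLX3397 library 3 reached 19.7. The 2 direct-pathway precursors were not shown to differ from each other: the genotype difference of the Pdyn to Tac1 ratio was -0.50 (1.41-fold, exact permutation p = 0.125, adjusted p = 0.188). That difference was -0.79 and called (adjusted p = 0.0188) with R6/2 PLX3397 libraries 1 and 2 left out. Without the libraries high in choroid plexus genes, the log2 differences were -1.74 for Penk to Tac1 and -1.28 for Penk to Pdyn. Neither was called (exact permutation, adjusted p = 0.06 for both), while the values with all libraries were -1.73 and -1.23. That setting leaves fewer arrangements, so its smallest p is above 0.005, and the lost calls cannot be told apart from this limit.

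For PLX3397, the log2 ratio of Penk to Tac1 differed by 0.31 (1.24-fold, exact permutation p = 0.025, adjusted p = 0.05, which is at and not under the threshold). The ratios of Penk to Pdyn (0.17, exact permutation p = 0.53) and of Pdyn to Tac1 (0.14, exact permutation p = 0.645) gave no call, and both were below 0 when single R6/2 PLX3397 libraries were left out. Leaving out R6/2 PLX3397 libraries 1 and 2, the Penk to Pdyn difference was 0.53 and called (adjusted p = 0.0188).

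**Figure D3:**
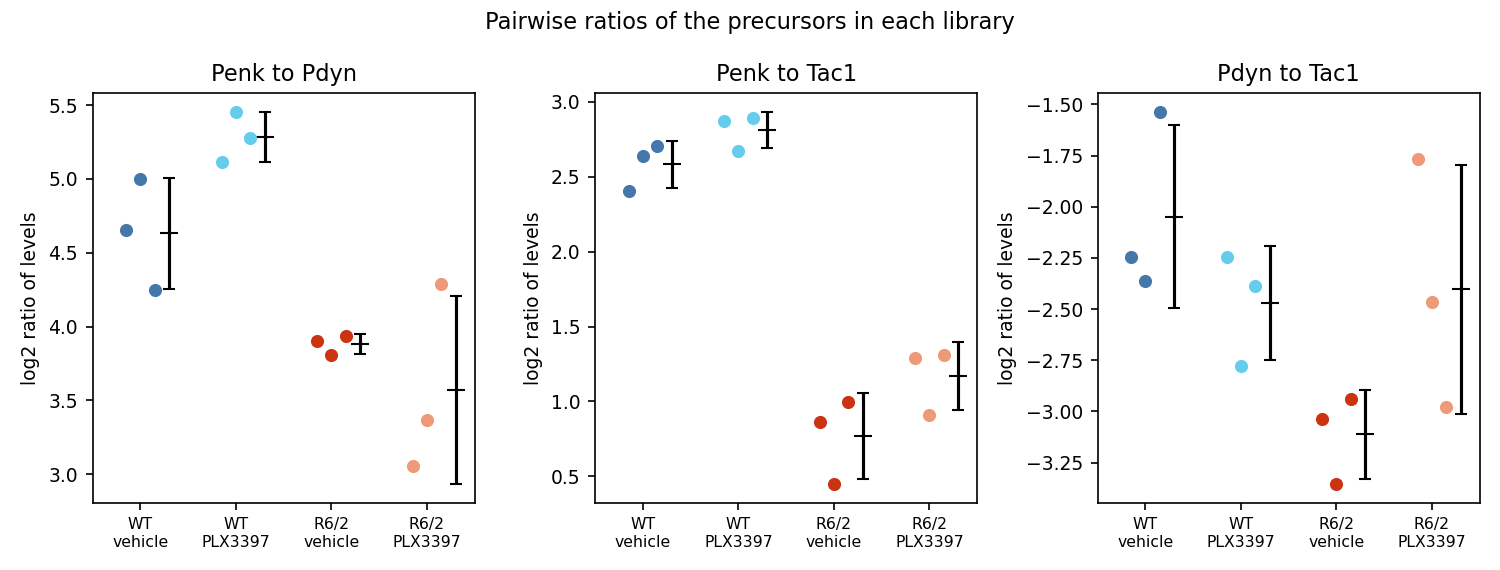
Log2 ratio of levels (vertical axes) for each pair of precursors in each of 12 libraries, in 4 groups of n = 3 mice, with mean ± SD in black. The Penk to Tac1 ratio separates all 6 R6/2 from all 6 wild-type libraries, and the Pdyn to Tac1 ratio overlaps between the genotypes.

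Set against the other RNA of projection neurons, Penk and Tac1 differed in direction on vehicle. Relative to the mean log2 level of the 12 genes common to both pathways, Penk was 0.83, 0.55 and 1.06 higher in wild-type vehicle libraries, and in R6/2 vehicle libraries it was at 0.15, -1.09 and -0.23. Tac1 lay at -1.57, -2.09 and -1.65 relative to that mean in wild type and at -0.71, -1.54 and -1.23 in R6/2 on vehicle. Pdyn lay at -3.82, -4.45 and -3.19 in wild type and at -3.75, -4.89 and -4.17 in R6/2, which overlap. On vehicle, Penk thus stood lower, Tac1 higher and Pdyn in an overlapping range against this reference. On PLX3397, Penk was again lower in R6/2 (0.38, -0.0094 and -0.14 against 0.90, 1.56 and 1.40 in wild type). There Tac1 overlapped (-0.91, -0.92 and -1.45 in R6/2 against -1.97, -1.11 and -1.49 in wild type), and Pdyn overlapped too (-2.68, -3.38 and -4.43 against -4.22, -3.89 and -3.88), with R6/2 libraries 1 and 2 above all wild-type ones. These values describe the libraries and carry no test.

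The precursors followed each other from mouse to mouse. Over the 12 libraries, Pearson's r was 0.95 for Penk with Tac1, 0.94 for Penk with Pdyn and 0.91 for Pdyn with Tac1, values that the genotype contrast largely sets. With each group's mean removed, r was 0.93, 0.76 and 0.72. The libraries share depth and dissection across the 3 genes, so these are descriptions of the libraries.

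Other genes of the indirect pathway also had lower levels in R6/2 on vehicle. Of 8 genes measured, 3 fell on vehicle (2 of 7 without Penk), against 1.49% of all genes. The median change was -2.44 (-2.39 without Penk), beside 0.0088 over all genes and -0.0031 over all genes on PLX3397. All 8 were below 0 on vehicle, from -3.09 to -0.27. The 3 were Penk, Gpr6, an orphan receptor (-2.57 ± 0.50, adjusted p = 0.0341), and Sp9, a transcription factor of these neurons (-1.59 ± 0.28, adjusted p = 0.0296). The dopamine receptor Drd2 (-2.48 ± 0.57, adjusted p = 0.0523) and the adenosine receptor Adora2a (-2.67 ± 0.61, adjusted p = 0.0510) were just outside the threshold. On PLX3397 6 of 8 fell (5 of 7 without Penk), with 17.9% of all genes, among them Drd2 (-2.96), Adora2a (-3.60) and Gpr6 (-3.62). There 7 of 8 were below 0, and the highest change was 0.29. Without the libraries high in choroid plexus genes 1 of 8 fell on vehicle, where fewer of all genes were called too. Leaving out R6/2 PLX3397 libraries 1 and 2 leaves 1 treated R6/2 library. Fewer genes of the list and fewer of all genes were then called on the drug.

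In the direct pathway list, 2 of 9 genes fell on vehicle, with 1.49% of all genes, Pdyn and Isl1, a transcription factor of direct-pathway neurons (-1.26 ± 0.24, adjusted p = 0.0323). The median change was -1.28 (-1.26 without Pdyn and Tac1), and the dopamine receptor Drd1 was not called (-2.34 ± 0.60, adjusted p = 0.0681). The muscarinic receptor Chrm4 was at -1.56 and not called. On PLX3397 5 of 9 fell, with 17.9% of all genes: Pdyn, Tac1, Drd1 (-2.62), Chrm4 (-2.67) and Slc35d3 (-1.81), a transporter-like protein. Isl1 was at 0.14 in that comparison, and the other genes not called were above 0 too, up to 0.94. Without Pdyn and Tac1, 3 of 7 fell on PLX3397, and the median was 0.026. Without the libraries high in choroid plexus genes 0 of 9 were called on vehicle, in a setting that called fewer of all genes too. With 1 treated R6/2 library left after removing R6/2 PLX3397 libraries 1 and 2, fewer of the list and of all genes were called on the drug.

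Of 12 genes common to both kinds of projection neuron, 3 fell on vehicle and 10 on PLX3397, where 1.49% and 17.9% of all genes were called lower, with median changes of -1.83 and -2.28. The 3 were Ppp1r1b (DARPP-32, a phosphatase inhibitor of dopamine signalling, -2.50), Rgs9 (a brake on G protein signals, -2.61) and Arpp21 (-1.89), and the adenylyl cyclase Adcy5 was at -1.91 and not called (adjusted p = 0.0510). With the relation to transcript GC content and length removed, 7 of 12 fell on vehicle, where more of all genes were called too. On vehicle the median of the indirect list was thus below that of the shared list and that of the direct list above it, a description with no test. Without the libraries high in choroid plexus genes 0 of 12 were called on vehicle, again with fewer of all genes called. With 1 treated R6/2 library left after removing R6/2 PLX3397 libraries 1 and 2, fewer of the 12 and of all genes were called on the drug.

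**Figure D4:**
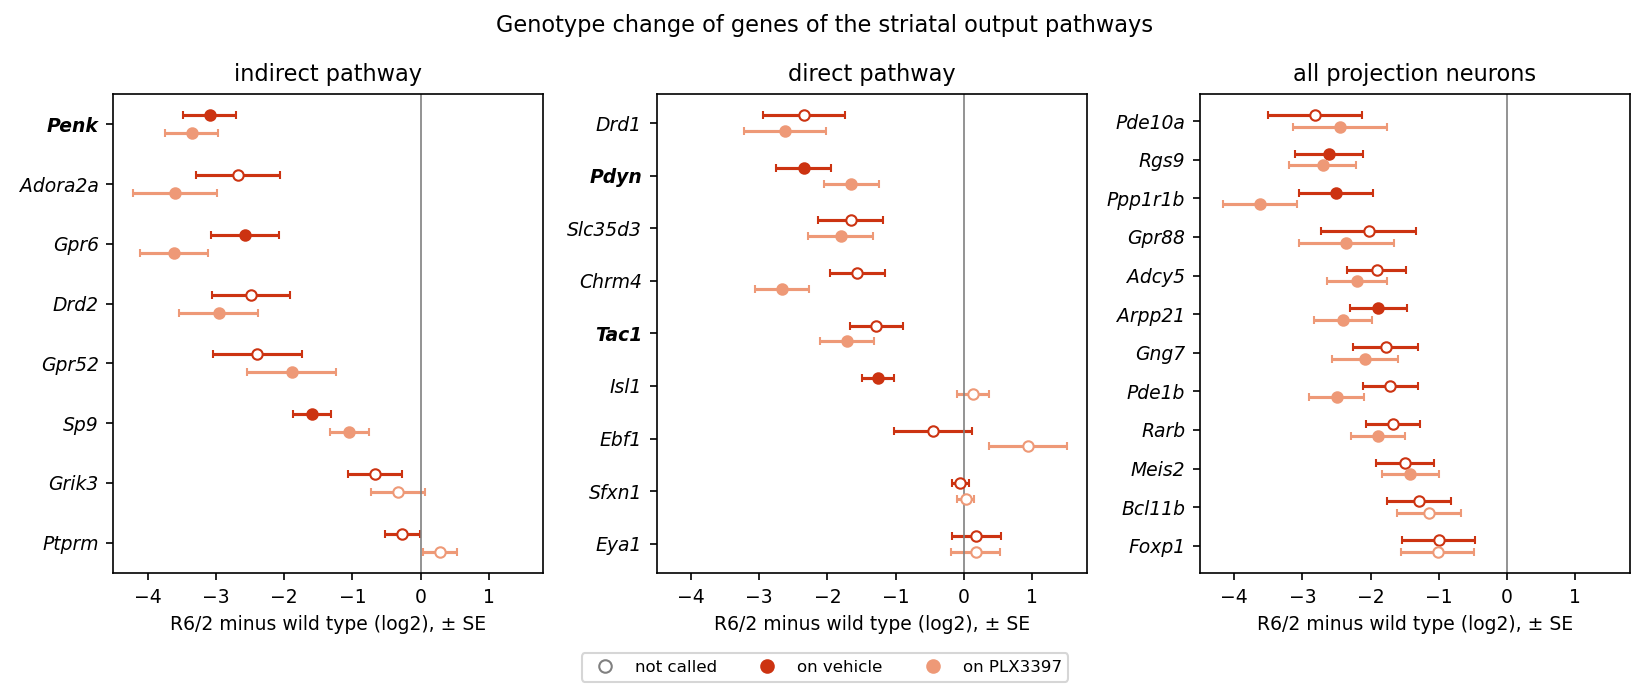
R6/2 minus wild type in log2 CPM (horizontal axes, ± SE) on vehicle (red) and on PLX3397 (orange) for genes of the indirect pathway (8), the direct pathway (9) and all projection neurons (12); filled points were called and open points were not. Penk, Pdyn and Tac1 are in bold, and Penk has the lowest change on vehicle of all genes drawn.

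Receptors of the opioid and tachykinin families, the nociceptin receptor among them, were taken as a list. Of 7 receptor genes listed, 6 were in the table. On vehicle 5 of 6 were below 0 in R6/2, with a median of -1.82, near the -1.83 of the 12 genes common to both pathways. On vehicle 2 of 6 fell in R6/2, with 1.49% of all genes called lower. They were Oprk1, the kappa receptor for dynorphin (-2.67 ± 0.51, adjusted p = 0.0326), and Tacr1, the neurokinin receptor for substance P (-2.08 ± 0.46, adjusted p = 0.0466). Oprk1 was at 5.55, 5.31 and 5.06 log2 CPM in wild-type vehicle libraries and at 1.74, 2.96 and 3.20 in R6/2 vehicle libraries, which do not overlap. Such lower values without overlap were found for 17.1% of all genes. On PLX3397 the levels of Oprk1 were 3.60, 4.35 and 5.13 log2 CPM in wild type and 4.36, 4.26 and 2.73 in R6/2, which overlap (-0.57, not called). On vehicle Oprm1 (-1.98) and the neurokinin receptor Tacr3 (-1.44) were not called. The delta receptor Oprd1, a receptor for enkephalin, was not called on vehicle (-1.66) or on PLX3397 (-1.09).

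On PLX3397 2 of 6 receptor genes were higher in R6/2, with 17.1% of all genes called higher, and none was lower. These were Oprm1, the mu receptor (2.90 ± 0.62, adjusted p = 0.00599), and Oprl1, the nociceptin receptor (1.04 ± 0.28, adjusted p = 0.0173). Oprm1 was scarce, with 4 to 101 reads per library, and it fell with the drug in wild type (-2.72 ± 0.62, adjusted p = 0.0206). With 1 treated R6/2 library left after removing R6/2 PLX3397 libraries 1 and 2, fewer receptor genes and fewer of all genes were called on the drug. Without the libraries high in choroid plexus genes, 0 of 6 were called on vehicle, where fewer of all genes were called too. Averaged over treatment, 2 of 6 receptor genes were lower, Oprk1 (-1.62, adjusted p = 0.0104) and Tacr1 (-1.58, adjusted p = 0.00688), and 1 was higher, Oprl1 (0.68, adjusted p = 0.0337). Among all genes 11.9% were called lower and 10.5% higher.

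**Figure D5:**
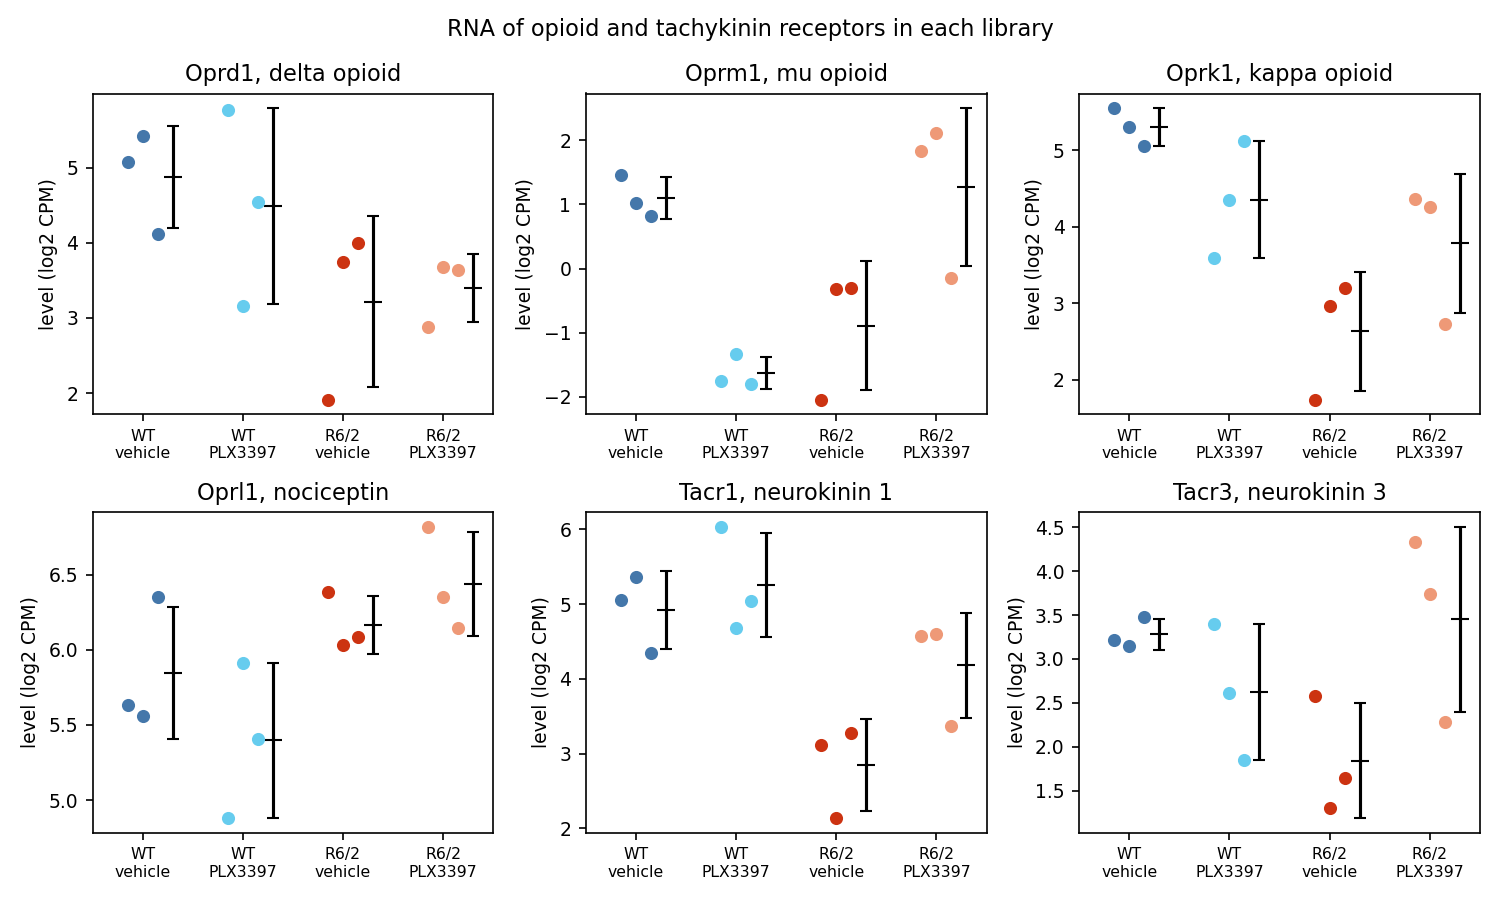
Level (vertical axes, log2 CPM) of 6 opioid and tachykinin receptor genes in each of 12 libraries, in 4 groups of n = 3 mice, with mean ± SD in black. On vehicle, Oprk1 and Tacr1 are lower in all 3 R6/2 libraries than in any wild-type library, and Oprm1 has its lowest group mean in wild type on PLX3397.

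The enzymes that make peptides from the precursors were not called on vehicle. Limma called 0 of 10 processing genes and limma-voom 0 of 10, and their median change was 0.23. At an unadjusted p under 0.05 there were 5 of 10, beside 3476 of 15397 over all genes. The smallest p-values were those of Pam (0.50 ± 0.15), which amidates peptide ends, the cathepsin Ctsl (0.41 ± 0.13), the convertase chaperone Scg5 (0.84 ± 0.27) and the convertase Pcsk6 (-0.67 ± 0.23), none called (highest adjusted p = 0.129 among these). On PLX3397 2 fell, the prohormone convertase Pcsk2 (-1.18 ± 0.25, adjusted p = 0.00552) and the carboxypeptidase Cpe (-0.87 ± 0.15, adjusted p = 0.00249), which trims the basic residues. The other main convertase, Pcsk1, was higher (1.23 ± 0.35, adjusted p = 0.0195). With 17.9% of all genes called lower and 17.1% higher there, the shares of processing genes called were near or below those of all genes. In that comparison 0 of 10 were called without R6/2 PLX3397 libraries 1 and 2.

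Granins, the bulk proteins of peptide vesicles, were at a median of -0.03 on vehicle, with limma and limma-voom calling 0 of 5 and 0 of 5 at an unadjusted p under 0.05. The changes there were -0.20 for Scg3, -0.35 for Scg2, 0.19 for Chgb and -0.03 for Chga. On PLX3397 2 of 5 fell, with 17.9% of all genes, Chgb (-0.82) and Vgf (-0.94). Among peptidases, 0 of 10 were called on vehicle by limma and by limma-voom. An unadjusted p under 0.05 was found for 3 of 10 peptidases, and for 3476 of 15397 genes over the whole table. Mme, neprilysin, which cleaves enkephalin, was at -1.84 and not called (adjusted p = 0.151), and Dpp3 was at 0.41, Anpep at 0.76 and Thop1 at 0.25. On PLX3397 Lnpep (3.37) and Ece2 (1.27) were higher and Thop1 (-0.97) and Dpp3 (-0.48) were lower. With 17.9% of all genes lower and 17.1% higher, the 2 higher and 2 lower of 10 peptidases were near the shares over all genes. None of these granins or peptidases was called without R6/2 PLX3397 libraries 1 and 2.

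Other neuropeptide genes were set beside the 3 precursors. Limma and limma-voom called 0 of 15 of them on vehicle, and their median change was -0.87. An unadjusted p under 0.05 was found for 3 of 15, beside 3476 of 15397 over all genes. The closest to a call on vehicle was Trh (-2.86 ± 0.65, adjusted p = 0.05, not under the threshold), followed by the interneuron peptide Sst (-0.96 ± 0.31), Adcyap1 (2.48 ± 1.13) and Npy (-0.87 ± 0.41). On PLX3397 the interneuron peptides Npy (-1.94 ± 0.41, adjusted p = 0.00537) and Sst (-1.85 ± 0.31, adjusted p = 0.00215) fell, and Trh rose (2.33 ± 0.65, adjusted p = 0.0191). These 2 of 15 lower and 1 of 15 higher were below the 17.9% and 17.1% of all genes. With the drug in R6/2, Trh rose too (3.54 ± 0.65, adjusted p = 0.0220), in the group whose libraries 1 and 2 were low in cortical genes. Hypothalamic marker genes (5 of 8 in the table) summed to 36.0 and 10.2 CPM in those 2 libraries, to 94.3 CPM in wild-type vehicle library 3 and 27.1 CPM in wild-type PLX3397 library 3, and to 0.96 to 5.27 CPM in the others. Leaving those R6/2 libraries out gave 0 of 15 called in either comparison, and the part of that tissue was not tested.

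Transcription factors taken as possible regulators of these precursors were tested as a list of 14 genes. Whether they act on the precursors here was not tested. On vehicle 1 of 14 fell, with 1.49% of all genes called lower. It was Isl1, which is also in the direct-pathway list. Foxp2 was at -2.24 ± 0.63 (adjusted p = 0.0842), Kcnip3 at -0.58 and Junb at -1.08, none called. On PLX3397 7 of 14 fell and 2 of 14 were higher in R6/2, against 17.9% and 17.1% of all genes, so the count higher was below the share over all genes. The 7 include Kcnip3 (DREAM), a repressor of the Pdyn gene (-1.74 ± 0.18, adjusted p = 2.69e-04), and the activity-dependent factors Junb (-2.27), Egr1 (-2.40), Nr4a1 (-2.03), Fosb (-1.40) and Fos (-1.15). Creb1 (1.37) and Atf2 (0.71), which bind the cAMP response element, were higher. With the relation to GC content and length removed, 6 were lower and 0 higher, where fewer of all genes were called too. With 1 treated R6/2 library left after removing R6/2 PLX3397 libraries 1 and 2, fewer of the 14 and of all genes were called. Averaged over treatment 8 of 14 were lower, against 11.9% of all genes, with Kcnip3 at -1.16 ± 0.13 (adjusted p = 2.96e-04).

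Likeness was measured among 13855 genes that averaged 1 CPM or more. Among the genes whose levels over the 12 libraries were most like Penk were Tmem158 (Pearson's r 0.99), Fam184b (0.98), Ptpn5 (0.98), a phosphatase of striatal neurons, and Rasgrp2 (0.97), which activates Ras-family proteins. For Pdyn they included Stk32a (0.96), Slc18a3 (0.95), the vesicular acetylcholine transporter, Gpr83 (0.95) and Ppef2 (0.95). For Tac1 they were Ppp1r7 (0.98), Asic4 (0.97), Muc3a (0.97), Rarb (0.97), a retinoic acid receptor of projection neurons, and Gdnf (0.97). These 3 sets share no gene. With group means removed, the closest 3 were Melk, Tac1 and Ryr3 for Penk (0.94, 0.93 and 0.93), Robo1, Tes and Zeb1 for Pdyn (0.95, 0.95 and 0.94), and Stk26, Dnajc1 and Cd163 for Tac1 (0.96, 0.95 and 0.95). These are descriptions over 12 libraries that fall into genotype groups.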

How the data were processed

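Striatal RNA of 12 mice was sequenced after extraction with Trizol, per the labels' protocols. STAR, featureCounts, edgeR, limma and the mm10 build are named per the submitters' processing notes; versions, gene annotation and strand setting are not given in the sources used here. The deposited values are named RPKM but are log2 CPM: their antilogs sum to near 1000000 per library, and 100% of values gave whole reads within 0.1 read. They were used as deposited, in place of a planned log of RPKM with a pseudocount of 0.1. No column was left unmapped (0).

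A single linear model with 4 group means and an intensity trend was fitted to the 12 libraries in limma 3.58.1 under R 4.3.3. A gene counted as called where its p, adjusted by Benjamini-Hochberg over 15397 genes, was under 0.05. Levels were computed per transcript length from GENCODE M21, where 92.9% of genes had a length and GC content. Ratios were tested by exact permutation. Alternatives were limma-voom on recovered reads, pseudocounts of 0.1 and 1 CPM, a mean of at least 1 CPM, a robust prior, rescaling by median of ratios, fits of only the groups compared, a replicate block, removal of a GC and length trend, each library left out, and, chosen after seeing the data, both pairs of doubtful libraries left out. Both tests were checked on simulated data. Pearson's r between replicates was 0.938 to 0.986, and a chi-square test of their reads gave 15.7 to 151 per degree of freedom, so the libraries differed by more than counting error.

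The members and the gene lists were chosen with earlier results of these data known. Named genes are the members, Drd1, Drd2 and Adora2a, up to 4 genes of each list with the smallest p on vehicle, list genes called in the interaction, and the 5 genes most like each member over 12 libraries and 3 with group means removed, of which 2 are not reported here. Other list genes, named because they were called in another comparison, and Oprd1 were chosen after their values were seen. Python 3.11.15, numpy 2.4.6, pandas 2.3.3 and matplotlib 3.10.9 were used.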

Additional observations from a re-analysis of the deposited data

Results flagged for a closer look

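Of 87 genes measured in the pathway and peptide lists, 11 (12.6%) responded to PLX3397 differently in R6/2 and wild type by limma's test of the difference itself (adjusted p under 0.05 over all genes). Among all genes 17.0% were called, so the count is below the share over all genes and is no result about these lists. The difference, as the drug's log2 change in R6/2 minus that in wild type, was 4.88 for the mu receptor Oprm1 (from 4 to 101 reads per library), 5.19 for Trh and 3.90 for the peptidase Lnpep. It was 1.68 for Creb1, 1.39 for Isl1 and 0.92 for Atf2. It was -1.22 for the peptidase Thop1, -1.16 for Kcnip3, -0.95 for the granin precursor Vgf, -0.89 for the peptidase Dpp3 and -0.69 for Jund.

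With the relation to transcript GC content and length removed, 3 of the 11 were called, Oprm1 (4.93, adjusted p = 0.0379), Thop1 (-0.68, adjusted p = 0.0395) and Trh (5.78, adjusted p = 0.0341). The value of Creb1 was then -0.15, that of Atf2 -0.20 and that of Jund -0.06. Without R6/2 PLX3397 libraries 1 and 2, no gene of the table was called, and the 11 values kept their sign. Markers of other regions moved with these differences: 8 genes of thalamus and septum had a median difference of 2.76 (2 called, Rora at 4.09 and Zic1 at 3.81), 5 hypothalamic genes a median of 3.35 (0 called) and 9 cortical genes a median of -3.06 (0 called). The part of GC content and of other tissue in these differences was not tested.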

How the results depend on the processing

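Over 30 values of the 3 precursors and their ratios, 675 recomputed values gave 643 with the same direction and call, 17 that lost a call, 5 that gained one and 10 that changed sign with no call before or after. The changes of sign were in 5 values. The Penk interaction ranged from -0.59 to 0.10 with 1 library left out and was 0.22 with the GC and length trend removed, with or without the replicate block. Without both libraries lowest in cortical genes, the Pdyn interaction was -0.066 and the drug's change in Pdyn to Tac1 was -0.14. With 1 library left out, the drug's change ranged from -0.10 to 0.70 for Tac1 in R6/2, from -0.0089 to 0.30 for Penk to Pdyn and from -0.016 to 0.29 for Pdyn to Tac1. Leaving out 1 library at a time, Penk on vehicle ranged from -3.46 to -2.77, Pdyn on vehicle from -2.68 to -2.06, Pdyn in treated R6/2 against untreated wild type from -1.70 to -0.91, the drug's change in the Penk to Tac1 ratio from 0.23 to 0.38 (called without R6/2 PLX3397 library 2) and the genotype change in Pdyn to Tac1 from -0.66 to -0.35 (called without R6/2 PLX3397 library 1). When both choroid-rich libraries were left out, Pdyn on vehicle (-2.29) and the genotype changes of Penk to Pdyn (-1.28) and Penk to Tac1 (-1.74) lost their calls. Without both libraries lowest in cortical genes, Tac1 on PLX3397 (-1.90) and Penk in treated R6/2 against untreated wild type (-2.40) lost theirs, and the drug's change in Penk to Pdyn (0.53) and the genotype change in Pdyn to Tac1 (-0.79) gained one. The cause was not tested, though these settings also leave fewer samples. For the ratios they also leave fewer arrangements, which raises the smallest p that the permutation test can give.

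Same-numbered libraries deviated together with r of -0.32 to 0.40, so the numbers do not pair the mice. With the replicate block, Pdyn on vehicle was -2.34 (adjusted p = 0.0698), and the Penk to Pdyn (-1.23) and Penk to Tac1 (-1.73) genotype changes had an adjusted p of 0.0625. For the ratios, the block leaves the permutation test fewer arrangements and so raises the smallest p it can give. The loss of both ratio calls cannot be told apart from this limit, and the log2 changes were those found without the block. With the block and the GC and length trend removed, Pdyn was -2.37 on vehicle (0.0510) and -1.36 on PLX3397 (0.0683). Other member calls held.

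Counts over all genes moved more. On vehicle 325 genes were called, against 145 with limma-voom, 40 with the block, 976 with the trend removed, 146 with both and 103 without the choroid plexus libraries. On PLX3397 5389 were called, against 2934 with only those groups fitted, 3334 with the trend removed, 2676 with block and trend and 237 without the libraries lowest in cortical genes. Treated R6/2 against untreated wild type gave 702, against 409 with the block, 1731 with the trend removed, 1123 without the choroid plexus libraries and 91 without the others. For the drug in wild type, 2191 became 351 with only those groups, 1110 with the block, 889 with the trend removed, 427 with both, 3560 without the choroid plexus libraries and 1317 without the others, and in R6/2 169 became 98 with only those groups and 58 without the libraries lowest in cortical genes. Genotype averaged over treatment gave 3454, against 1068 without those libraries. The interaction gave 2617, against 1432 with the block, 325 with the trend removed and 0 with both or without those libraries. Pdyn, with 95 to 224 reads in R6/2 on vehicle, is the precursor that depth limits most.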
